A study of Mus musculus with 18 samples.

Results

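The *Atrx* KO clones sg5 and sg6 were compared with each other in RNA from which ribosomal RNA had been depleted. Both are single-cell clones of C3H/10T1/2, a mouse mesenchymal progenitor cell (MPC) line, and each was made with a different guide RNA against *Atrx* after a transient Cas9 transfection. The comparison takes 6 of the 18 libraries of the series, 3 of sg5 and 3 of sg6, chosen by clone and by library type and not by any measured value. Beside them stand 3 rRNA-depleted WT libraries, from a line that received the Cas9 vector with no guide, and 6 polyA-selected libraries of the same clones. All cells were grown undifferentiated in serum-containing medium. Each guide is represented by 1 clone, so a difference between the guides and a difference between the clones cannot be told apart. The samples are labelled as replicates with no statement of separate cultures, and p-values therefore measure only the spread between these libraries, which may be technical.

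The table of rRNA-depleted counts lists 22982 autosomal genes, of which 12830 had enough counts to be tested, and 3725827 transposable element (TE) loci, of which 928622 had a count and 42783 could be tested. A TE locus is 1 annotated copy of a repeat, and its name gives the subfamily, the family and the class without a position, so loci on the X chromosome could not be left out. Library totals ran from 20135336 to 33187136 counts. In the 6 clone libraries, TE rows took 10.4 to 12.1% of the counts. Levels are CPM (counts-per-million of the library's counts in the features tested, after TMM scaling). Differences are log2 fold changes of sg5 over sg6 from edgeR's quasi-likelihood fit. Fewer cells with an RNA and less of it per cell cannot be told apart in such bulk samples. A gene was called when its log2 fold change was beyond 1 with an adjusted p below 0.05, and a TE locus or subfamily when its adjusted p was below 0.05.

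ATRX is a chromatin remodeler that works with the histone chaperone DAXX and is known for its role at heterochromatin, telomeres and silenced repeats. Mesenchymal progenitors can give rise to fat, cartilage, bone and muscle cells, and are known by their surface antigens and by the matrix they make. Among mouse repeats, endogenous retroviruses carry long terminal repeats (the LTR class, in which ERVK is the family of the IAP and ETn elements), LINEs are retrotransposons that copy themselves, and SINEs such as B1 and B2 are short elements that depend on LINE proteins.

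*Atrx* RNA was present at overlapping levels in both clones. The sg5 libraries had 112, 60.8 and 73.9 CPM, the sg6 libraries 101, 75.7 and 83.7 CPM and the WT libraries 222, 192 and 231 CPM. Both clones lay below every WT library and overlapped each other, with a log2 fold change of -0.08 ± 0.20 (SE) between them (adjusted p = 0.962). Of the mesenchymal markers, *Vim*, *Col1a1*, *Col1a2*, *Prrx1* and *Pdgfrb* had 78.6 CPM or more in each clone library and *Twist1* 24.2 to 27.7 CPM, while *Thy1* had 1 to 4 counts in the sg5 libraries. Among markers of other cells, *Ptprc*, *Adgre1* and *Itgam* (immune), *Epcam*, *Cdh1*, *Krt5* and *Krt14* (epithelial), *Pecam1*, *Cdh5* and *Kdr* (endothelial) and *Rbfox3* and *Sox10* (neural) stayed at or below 0.447 CPM in the clone libraries. In WT, *Cdh1* was above that limit, at 1.58 to 3.06 CPM, as was *Krt14*, at 2.58 to 6.12 CPM. The endothelial receptor gene *Tek* was at 3.08 to 14.1 CPM in sg5 and 7.68 to 9.95 CPM in sg6, and *Cd68*, a macrophage marker, at 1.003 to 1.54 and 1.57 to 1.62 CPM. Some of these genes stood apart in the library sg5 replicate 1. *Gfap*, a glial gene, had 27.6 CPM there against 6.69 and 2.90 CPM in the other sg5 libraries and 0.261 to 6.51 CPM in sg6. *Snap25*, a neuronal gene, had 42 counts (1.62 CPM) there and 0 to 3 counts in each of the other clone libraries, and *Col1a1* 85.6 CPM against 773 and 232 CPM in the other sg5 libraries. Replicate 1 was also highest for *Gfap* and lowest for *Col1a1* within sg6 and within WT. *Gfap* had 6.51 CPM there against 0.261 and 0.701 CPM in sg6, and 1.93 against 0.258 and 1.31 CPM in WT. *Col1a1* had 156 against 369.5 and 339 CPM in sg6, and 162 against 355 and 262 CPM in WT.

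Of the 12830 autosomal genes tested, 67 were higher in sg5 than in sg6 (0.522% of the genes tested) and 115 were lower (0.896%). All 182 had every sg5 library beyond every sg6 library, but they were chosen by this same difference, so the separation is not a separate result. The median log2 fold change was 2.42 among the higher genes and -2.00 among the lower genes, against 0.05 over all genes tested. More than 20% of the 31-base words of the transcript occur in other genes for 5 of the 64 higher and 7 of the 109 lower genes found in the GENCODE annotation, and exons overlap a gene of the other strand for 10 and 26 of them, whose reads cannot be told apart because the strand setting of the counting is not given in the sources used here. Blocking on replicate number gave 128 higher genes, which included all 67. The counts also moved with single libraries: 109 genes were higher without sg6 replicate 1, 35 without sg6 replicate 2 and 31 without sg6 replicate 3, while 72 genes were lower without sg5 replicate 2 and 65 without sg6 replicate 3. In 20 of the 67 and 36 of the 115 genes, the lower clone stayed under 0.5 CPM in all 3 libraries. The mean of the WT libraries lay between the clones for 36 of the 67 and 49 of the 115 genes. The share over all genes tested was 22.7%, but the called genes were chosen for a gap between the clones, into which WT falls more readily. The 2 shares are therefore not alike. The larger share of the other called genes had WT above both clones, 22 of the higher and 45 of the lower genes.

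**Figure D1:**
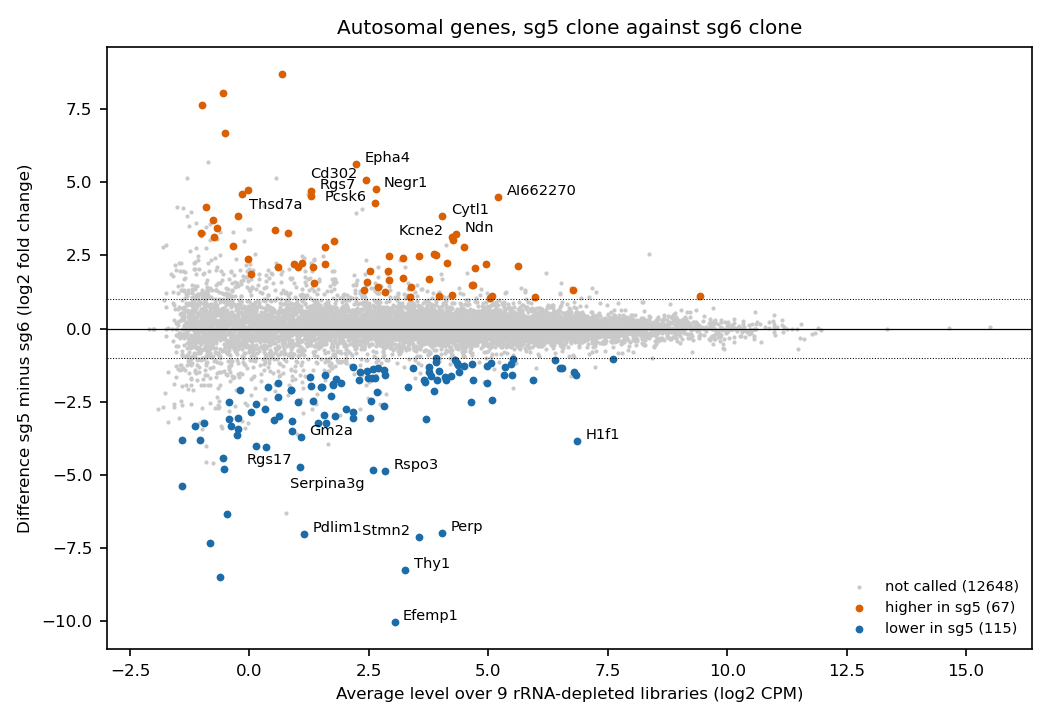
Each point is 1 of the 12830 autosomal genes, with its average level over the 9 rRNA-depleted libraries in log2 CPM on the x axis and its log2 fold change of sg5 over sg6 on the y axis. The 67 higher genes are orange, the 115 lower genes are blue, dotted lines mark a log2 fold change of 1 in each direction, and the 10 highest and 10 lowest of the called genes with an average of at least 1 log2 CPM are named, from *Epha4* at 5.63 to *Efemp1* at -10.01.

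The largest differences were close to all or none. *Efemp1* (chromosome 11, 28853154 to 28926743, in GRCm38), which encodes an extracellular matrix glycoprotein of the fibulin group, had no count in any sg5 library, 4.05, 6.75 and 4.43 CPM in sg6 and 14.9, 19.4 and 23.1 CPM in WT. Against a floor of 3 counts per library, sg6 was at least 38.2-fold higher than sg5 (fitted log2 fold change -10.01 ± 0.64, adjusted p = 1.21e-05). *Efemp1* was not detectable in sg5 at this depth, and in the deeper polyA libraries it had 0.196 to 0.204 CPM in sg5, against 8.43 to 17.4 CPM in sg6. *Thy1* (chromosome 9, 44043384 to 44048579), the gene of the CD90 surface antigen used to mark mesenchymal stromal cells, gave 0.0385, 0.223 and 0.0387 CPM in sg5 libraries, 34.1, 25.5 and 24.7 CPM in sg6 and 0.263, 0.221 and 0.446 CPM in WT. Here sg6 was the clone that differed from WT, and its log2 fold change of -8.25 ± 0.43 (adjusted p = 3.76e-07) had the same sign and a like size in the polyA libraries, at -8.76 ± 0.20. The polyA level was 0.246 to 0.370 CPM in sg5, 119 to 154 CPM in sg6 and 0.803 to 1.098 CPM in WT.

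Other genes had the pattern of *Thy1*, on in sg6 and near 0 in both sg5 and WT. *Perp*, which encodes a desmosome-associated membrane protein and is a p53 target, had 0.0385, 0.501 and 0.618 CPM in sg5 against 31.6, 48.4 and 64.7 CPM in sg6 (log2 fold change -6.98 ± 0.52, adjusted p = 1.18e-05). *Stmn2*, a neuronal regulator of microtubules, ran from 0.116 to 0.346 CPM in sg5 and from 14.9 to 45.5 CPM in sg6 (log2 fold change -7.11 ± 0.53, adjusted p = 1.18e-05). *Pdlim1*, which encodes a PDZ and LIM domain protein of actin fibres, had 3 counts in all over the sg5 libraries and 456 in sg6, a ratio of 146 (95% counting interval 49.5 to 709). In WT, *Perp* and *Stmn2* stayed at or below 0.111 CPM and *Pdlim1* at or below 0.295 CPM, so the WT libraries sat with sg5 and apart from sg6. The neural markers that *Stmn2* belongs with did not move as a group: of 5 tested members of that list, *Stmn2* alone was called, and the median log2 fold change was -0.11.

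*Rspo3*, *Serpina3g* and *H1f1* had their highest mean in WT, a lower one in sg6 and little left in sg5. *Rspo3*, a secreted activator of Wnt signalling, had 0.0385, 0.167 and 0.271 CPM in sg5 libraries, 5.77, 5.07 and 3.55 CPM in sg6 and 27.3, 8.15 and 13.1 CPM in WT (log2 fold change -4.88 ± 0.58, adjusted p = 0.000958). *Serpina3g*, a serine protease inhibitor, had 3 counts over the sg5 libraries and 99 over sg6 (ratio 31.6, interval 10.5 to 156) and 11.6 to 25.3 CPM in WT, and 28.4% of its 31-base words occur in other transcripts, mainly of its paralogs, so its counts are uncertain. *H1f1*, the gene of a linker histone, had 4.46, 11.4 and 10.2 CPM in sg5 libraries, 80.7, 171 and 118 CPM in sg6 and 274, 212 and 165 CPM in WT. *H1f1* was the 1 histone gene called of 56 tested, which had a median log2 fold change of -0.12 and reached at most 0.35. The other linker histone genes tested on chromosome 13, *H1f2* to *H1f6*, had log2 fold changes from -0.84 to 0.04 and were not called. *Rgs17*, a regulator of G protein signalling, was at 0 to 0.232 CPM in sg5 and 3.02 to 4.66 CPM in sg6, with a log2 fold change of -4.71 ± 0.53. *Gm2a*, the GM2 ganglioside activator, had a log2 fold change of -3.71 ± 0.52, and for both genes the mean of WT was nearer to sg6 than to sg5. Neither was near 0 in sg5 in polyA, and both differences were smaller there. *Rgs17* had 1.33 to 1.96 CPM in sg5 against 5.89 to 11.1 CPM in sg6 (-2.47 ± 0.28). *Gm2a* had 5.46 to 7.28 CPM in sg5 against 9.17 to 21.7 CPM in sg6 (-1.39 ± 0.33).

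In the other direction, *Epha4*, an ephrin receptor, led the genes higher in sg5 among those averaging at least 1 log2 CPM. It had 11.6, 10.4 and 9.35 CPM in sg5 libraries, 0.172, 0.261 and 0.175 CPM in sg6 and 4.07, 3.47 and 2.20 CPM in WT (log2 fold change 5.63 ± 0.35, adjusted p = 1.83e-06). The WT libraries lay between the clones without touching either. *Cd302*, a C-type lectin receptor, had 10.1, 9.81 and 8.31 CPM in sg5 libraries, 0.172, 0.149 and 0.526 CPM in sg6 and 5.64 to 7.40 CPM in WT (log2 fold change 5.06 ± 0.38). *AI662270*, a noncoding RNA gene of chromosome 11, had 51.3, 52.5 and 54.9 CPM in sg5 libraries, 1.29, 2.80 and 2.89 CPM in sg6 and 52.6 to 61.4 CPM in WT, a log2 fold change of 4.50 ± 0.25. For this gene, sg5 was at the WT level and sg6 was the clone that differed. *Negr1*, a neuronal adhesion molecule, *Rgs7*, a regulator of G protein signalling, and *Cytl1*, a secreted cytokine-like protein, were higher in sg5 than in sg6 by 4.77 ± 0.43, 4.70 ± 0.76 and 3.85 ± 0.45 on the log2 scale and were highest in WT, with means of 14.03, 6.18 and 42.6 CPM. *Rgs7* rests on 60 counts in sg5 and 2 in sg6 (ratio 31.3, interval 8.30 to 264.5) and was not called without sg6 replicate 2 or without sg6 replicate 3 (adjusted p = 0.0597 and 0.0601).

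The remaining genes of this kind were *Thsd7a*, an adhesion-related membrane protein (4.51 ± 0.41), the proprotein convertase *Pcsk6* (4.30 ± 0.60), *Ndn*, an imprinted growth suppressor (3.23 ± 0.18), and the potassium channel subunit *Kcne2* (3.12 ± 0.55). They had their highest mean in sg5, above WT as well as sg6. *Pcsk6* spread widely over the sg5 libraries, at 3.35, 23.7 and 19.4 CPM, while sg6 stayed at 0.474 to 1.05 CPM. *Kcne2* had 76.4, 38.9 and 31.4 CPM in sg5 against 10.8, 1.98 and 4.21 CPM in sg6 and was not called without sg6 replicate 3 (log2 fold change 2.94, adjusted p = 0.153).

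**Figure D2:**
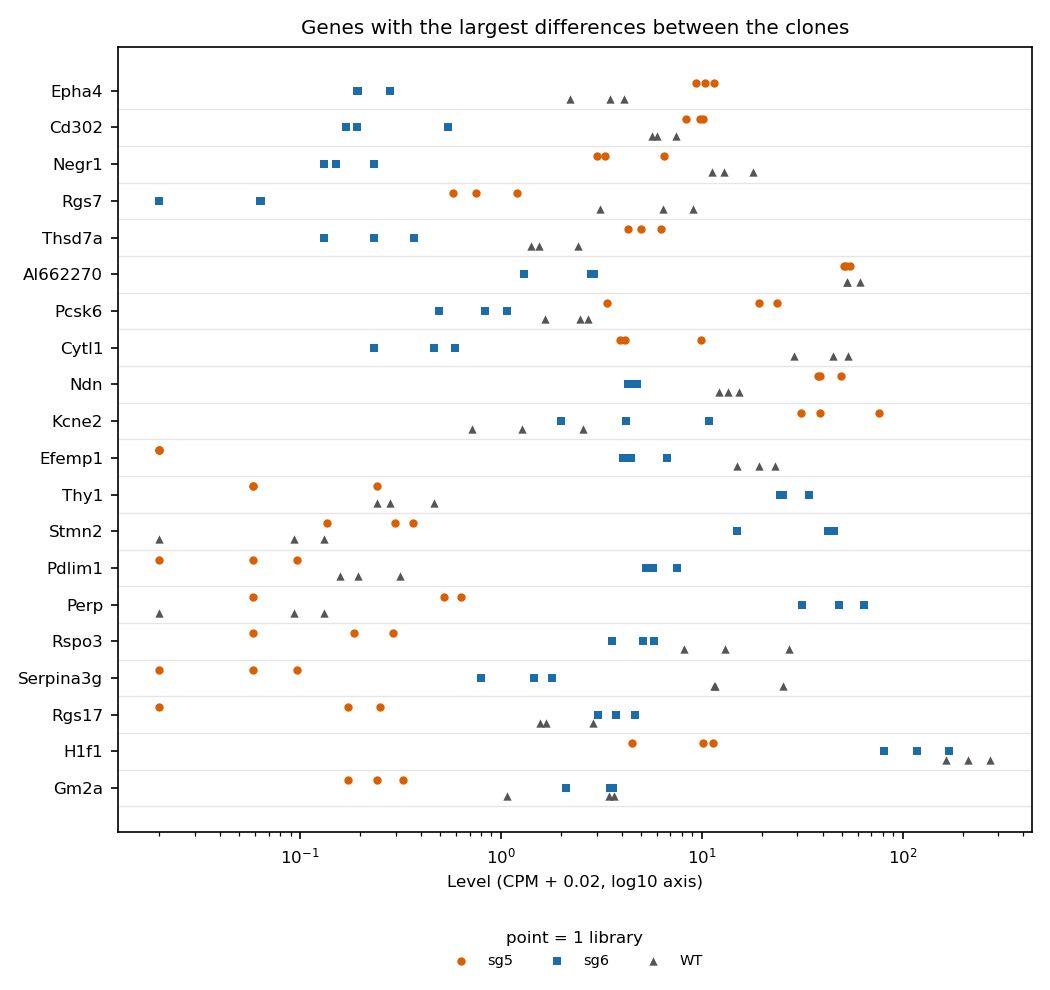
The level of the 10 highest and the 10 lowest named genes in each library, as CPM plus 0.02 on a log10 axis, with 1 point per library for sg5 (orange circles), sg6 (blue squares) and WT (grey triangles). For each gene the sg5 and sg6 points do not overlap, and the WT points lie with sg5 for *Thy1*, *Stmn2*, *Perp* and *AI662270* and nearer to sg6 for *Rgs17* and *Gm2a*.

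A count of 0 in every library of 1 clone occurred in 8 called genes, 4 in each direction, and 7 of these fell outside the rule for naming genes and are named here after their values were seen. *Zcchc3*, a zinc knuckle protein of nucleic acid sensing, had 47, 40 and 39 counts in sg6 and none in any sg5 or WT library, so that sg6 was at least 13.1-fold higher than sg5. It was also without a count in the 3 polyA libraries of sg5, against 1.91 to 2.31 CPM in sg6. *Wdr31* (29 counts in sg6, at least 2.95-fold) and *G730013B05Rik* (56, at least 5.90-fold) had no count in sg5 but had counts in every WT library. *G730013B05Rik* was not absent from sg5 in polyA, at 0.877 to 1.06 CPM against 1.8 to 2.13 CPM in sg6. In sg6, no count was found for *Gm13212* (139 in sg5, at least 16.3-fold), *Zfp583* (92, at least 10.5-fold), *Zic5* (69, at least 7.93-fold) and *Xylt1* (34, at least 4.17-fold). *Zfp583* and *Zic5* encode zinc finger proteins, and *Xylt1* an enzyme that starts glycosaminoglycan chains. In polyA, *Gm13212* was again close to absent from sg6, at 0 to 0.0355 CPM against 7.001 to 7.60 CPM in sg5, but 70.8% of its 31-base words occur in transcripts of related zinc finger genes, so its counts are uncertain. *Zfp583* was not absent from sg6 in polyA, where it had 0.991 to 1.17 CPM against 2.74 to 2.87 CPM in sg5. Nor was *Xylt1*, with 0.289 to 0.90 CPM in sg6 and 2.04 to 5.29 CPM in sg5 in polyA. *Zic5* had 0 to 0.0803 CPM in sg6 there, against 1.23 to 1.47 CPM in sg5.

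The promoters of genes that differed so widely are shown for the highest and the lowest named genes with a sequence in the RefSeq table (GRCm38.p6), as the 250 bases before the outermost start that table lists, 5′ to 3′ on the gene's strand. For *Epha4* and *Efemp1* that start lies inside the annotated gene, and the last 19 and 51 bases were left out so that only sequence outside the gene is printed. Capitals mark CpG dinucleotides, the sites of DNA methylation in mammals. They are given because the expression of these genes is near 0 in 1 clone and not in the other, and methylation itself was not measured here. *Epha4* lies on the minus strand at chr1:77515108-77515338 with 14 CpG in the printed window, *Cd302* on the minus strand at chr2:60284485-60284734 with 3, *Efemp1* on the plus strand at chr11:28852955-28853153 with 7 and *Pdlim1* on the minus strand at chr19:40271617-40271866 with 17.
Epha4: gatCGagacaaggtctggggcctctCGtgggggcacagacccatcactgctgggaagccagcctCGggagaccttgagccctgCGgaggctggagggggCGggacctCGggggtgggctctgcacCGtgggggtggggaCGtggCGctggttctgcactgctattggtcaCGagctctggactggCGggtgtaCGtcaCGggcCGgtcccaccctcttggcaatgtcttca
Cd302: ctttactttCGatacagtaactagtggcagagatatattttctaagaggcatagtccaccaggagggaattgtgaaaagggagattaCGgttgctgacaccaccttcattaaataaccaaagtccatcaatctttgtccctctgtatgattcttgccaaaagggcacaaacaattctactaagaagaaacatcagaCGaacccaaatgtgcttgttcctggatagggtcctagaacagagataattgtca
Efemp1: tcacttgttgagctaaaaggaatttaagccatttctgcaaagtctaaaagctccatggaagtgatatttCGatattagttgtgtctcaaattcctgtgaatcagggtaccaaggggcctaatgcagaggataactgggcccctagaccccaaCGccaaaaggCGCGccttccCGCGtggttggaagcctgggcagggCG
Pdlim1: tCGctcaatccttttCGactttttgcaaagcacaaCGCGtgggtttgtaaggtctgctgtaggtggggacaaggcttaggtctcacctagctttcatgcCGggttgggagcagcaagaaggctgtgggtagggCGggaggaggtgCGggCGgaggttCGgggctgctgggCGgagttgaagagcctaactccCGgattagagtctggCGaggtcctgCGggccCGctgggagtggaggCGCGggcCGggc

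The 4 printed windows ran from CpG-poor, for *Cd302*, to CpG-dense, for *Pdlim1*. Windows of the full 250 bases were counted for all genes. A sequence was found for 10005 of the 12830 genes tested, with a median of 16 CpG in 250 bases, and 73.9% of these held at least 10. At least 10 CpG were found in 28 of 51 promoters of the genes higher in sg5 (54.9%), in 57 of 87 of those lower in sg5 (65.5%), and in 31 of 44 of the called genes under 0.5 CPM in every library of 1 clone (70.5%). These shares are descriptions of the sequence and were not tested.

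Among the called genes with the highest average level, the differences were smaller. *Marcks*, a membrane-bound actin regulator, had 880, 917 and 688 CPM in sg5 libraries, 485, 272 and 387 CPM in sg6 and 706 to 1033 CPM in WT, a log2 fold change of 1.12 ± 0.21 (adjusted p = 0.0281). *Cdh11*, a mesenchymal cadherin, and the transcription factor *Ets1* were also higher in sg5, by 1.33 ± 0.22 and 1.07 ± 0.15. Lower in sg5 were *Ephx1*, an epoxide hydrolase (-1.03 ± 0.14), the metal-binding *Mt2* (-1.57 ± 0.21), the surface antigen *Ly6c1* (-1.47 ± 0.23), *Arl6ip1*, a protein that shapes the endoplasmic reticulum (-1.36 ± 0.16), *Pqlc3* (-1.33 ± 0.20) and the stress-responsive *Ndrg1* (-1.07 ± 0.20). For *Ephx1*, *Mt2*, *Ly6c1*, *Arl6ip1* and *Ndrg1* every sg5 library was also below every WT library. 58.1% of the words of *Mt2* and 46.8% of those of *Ly6c1* occur in other transcripts, and *Mt2* overlaps the exons of *Gm45774* on the other strand, so the values of both are uncertain.

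Several of these calls were lost in fits that left out 1 library. *Marcks* lost its call without WT replicate 3, sg5 replicate 1, sg5 replicate 2, sg6 replicate 2 or sg6 replicate 3 (adjusted p from 0.0541 to 0.158), and *Cdh11* without sg5 replicate 2, sg5 replicate 3, sg6 replicate 2 or sg6 replicate 3 (0.064 to 0.074). *Ndrg1* lost it in 6 of the 9 fits that left out a library, those without WT replicates 1 or 2, sg5 replicates 1 or 2 and sg6 replicates 1 or 3, with log2 fold changes from -0.87 to -1.17. *Ephx1* was at -0.94 and -0.95 without sg5 replicate 2 and sg6 replicate 1, *Ets1* at 0.96 and 1.0 without sg5 replicate 1 and sg6 replicate 3, and *Ly6c1* had an adjusted p of 0.0576 without sg5 replicate 2.

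In the list of mesenchymal progenitor genes, 3 of 18 tested members were called, all lower in sg5, against 0.896% lower and 0.522% higher of all genes tested, and the median log2 fold change of the list was -0.14. Beside *Thy1* these were *Alcam*, a cell adhesion molecule, with 7.62, 4.62 and 7.34 CPM in sg5 against 23.9, 40.7 and 42.7 CPM in sg6 (-2.45 ± 0.36, adjusted p = 0.00578), and the transcription factor *Etv1* (-1.59 ± 0.28). Both had their highest mean in WT, and *Etv1* was not called without sg5 replicate 1, sg5 replicate 2, sg6 replicate 2 or sg6 replicate 3 (adjusted p from 0.0708 to 0.109). The adipogenic list had 1 of 22 members called: *Lpl*, the lipase that frees fatty acids from lipoproteins, had 3.50, 2.90 and 1.31 CPM in sg5 against 23.1, 10.3 and 8.94 CPM in sg6, where WT was at 0.418 to 0.876 CPM. Its log2 fold change of -2.46 ± 0.42 (adjusted p = 0.0173) lost the call without sg5 replicate 2 or sg5 replicate 3 (0.0595 to 0.0684). In the smooth muscle list 2 of 14 were called, the myosin light chain *Myl9* (-3.10 ± 0.53) and the tropomyosin *Tpm2* (-1.23 ± 0.21). *Myl9* was not called without sg5 replicate 3 or sg6 replicate 3, nor *Tpm2* without sg5 replicate 2, sg6 replicate 2 or sg6 replicate 3 (adjusted p from 0.052 to 0.113). The osteogenic list had *Msx1*, a homeobox factor, at 2.10 ± 0.33 among 8 tested, which had an adjusted p of 0.0542 to 0.0784 without sg6 replicate 2 or sg6 replicate 3. In the chondrogenic list *Hapln1*, a hyaluronan link protein, was called among 16 (-1.76 ± 0.30, and adjusted p = 0.0797 without sg5 replicate 2), and the median of that list was 0.83, against 0.05 in polyA. Of 6 skeletal muscle genes tested none was called, with a median of -0.28.

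Matrix genes were called in both directions. Of 34 collagen and elastic fibre genes tested, *Col8a2* and *Fbn2* were higher in sg5 and *Efemp1* lower, against 0.522% higher and 0.896% lower of all genes tested, and the median was 0.23. *Col8a2*, a short-chain collagen, had 62.2, 164 and 118 CPM in sg5 libraries, 33.6, 22.4 and 22 CPM in sg6 and 6.60 to 10.7 CPM in WT (2.14 ± 0.31, and adjusted p = 0.0533 without sg6 replicate 3). *Fbn2*, a fibrillin of elastic microfibrils, had 15.97, 47.3 and 20.2 CPM in sg5 against 7.02, 3.54 and 9.38 CPM in sg6 (2.06 ± 0.39). It lost its call in 7 of the 9 fits that left out a library, all but those without sg5 replicate 1 or sg5 replicate 3 (adjusted p from 0.0517 to 0.103). Among 20 matrix proteases and inhibitors, the procollagen protease *Adamts2* was lower in sg5 (-1.19 ± 0.21), and it was not called without sg5 replicate 3, sg6 replicate 1 or sg6 replicate 3 (log2 fold changes from -0.93 to -1.27).

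Among signalling genes, 1 of 25 Wnt genes tested was higher in sg5 and 2 were lower, against 0.522% and 0.896% of all genes tested. These were the receptor *Fzd4* (1.14 ± 0.22), the receptor *Fzd6* (-3.34 ± 0.64) and *Rspo3*, described above. *Fzd4* had 24.3, 34.2 and 24.8 CPM in sg5 against 16.4, 9.58 and 11.7 CPM in sg6. *Fzd6* was at 0.0557 to 0.387 CPM in sg5 and 0.862 to 2.50 CPM in sg6, and at most 0.0369 CPM in WT. Each of them lost its call in 7 of the 9 fits that left out a library, *Fzd4* in all but those without sg5 replicate 1 or sg6 replicate 1 and *Fzd6* in all but those without sg5 replicate 3 or sg6 replicate 1 (adjusted p from 0.0545 to 0.219). *Fgfr2*, a receptor of fibroblast growth factors, was the 1 called of 20 genes of the FGF, ERK feedback and ETV list. It had 43.1, 38.6 and 28.8 CPM in sg5 libraries, 7.97, 2.24 and 3.42 CPM in sg6 and 11.3 to 19.6 CPM in WT (3.02 ± 0.38, adjusted p = 0.00176). *Epha4* was the 1 called of 33 axon guidance genes, whose median was 0.30. The chemokine *Ccl7* had 2.27, 2.90 and 3.98 CPM in sg5 against 8.57, 30.5 and 12.6 CPM in sg6 (-2.50 ± 0.47, adjusted p = 0.0313), 1 of 19 in its list. It was not called without WT replicate 1, any 1 of the sg5 replicates, sg6 replicate 2 or sg6 replicate 3 (adjusted p from 0.0661 to 0.156). None was called among 28 TGF-beta and BMP genes (median 0.11), 11 Notch genes (0.46), 29 interferon response genes (0.22), 12 antigen presentation genes (0.21), 35 cell cycle and replication genes (-0.17), 34 heterochromatin and silencing genes (0.09), 21 cholesterol synthesis genes (0.32) and 11 Hox genes (0.28). In the p53 target list, *Perp* was the 1 called of 21, and the median was -0.27.

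Imprinted genes, which are read from 1 parental copy, were called at 3 of 19 tested members, 1 higher in sg5 and 2 lower, against 0.522% and 0.896% of all genes tested. *Ndn* had 49.3, 38.0 and 39.0 CPM in sg5 libraries, 4.74, 4.29 and 4.43 CPM in sg6 and 12.2 to 15.3 CPM in WT (adjusted p = 5.94e-07), so that WT lay between the clones. *Plagl1*, a zinc finger regulator of growth, was at 0 to 0.155 CPM in sg5, 0.732 to 1.14 CPM in sg6 and 5.85 to 7.84 CPM in WT (-3.22 ± 0.50, adjusted p = 0.00872). The noncoding RNA *H19* was at 0.155 to 0.423 CPM in sg5, 2.31 to 2.67 CPM in sg6 and 4.24 to 9.15 CPM in WT (-3.21 ± 0.43, adjusted p = 0.00316). The *H19* difference was not seen in polyA, where sg5 had 0.185 to 0.840 CPM and sg6 0.213 to 0.643 CPM (0.03 ± 0.56). The list as a whole had a median of 0.26.

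Of 3 endothelial markers tested, *Erg*, an ETS factor, was higher in sg5, with 12.1, 6.80 and 6.30 CPM against 3.40, 2.01 and 2.63 CPM in sg6 and 8.96 to 15.2 CPM in WT (1.65 ± 0.31, adjusted p = 0.0291). It was not called without WT replicate 3, sg5 replicate 1, sg6 replicate 2 or sg6 replicate 3 (adjusted p from 0.0663 to 0.17). The summed level of the 3 endothelial markers tested, *Erg* among them, was 17.8 to 21.5 CPM in sg5 and 10.3 to 13.2 CPM in sg6. These did not overlap, but *Erg* was chosen by this same difference, so the gap is not a separate result. The median log2 fold change of the 3 markers was 1.65, equal to that of *Erg*. *Tek*, also an endothelial gene, overlapped between the clones, at 3.08 to 14.1 CPM in sg5 and 7.68 to 9.95 CPM in sg6. Of all genes tested, 0.522% were higher in sg5. The other sums were likewise over tested members only, given for sg5 and then sg6. They were 78.1 to 143 and 105 to 200 CPM for the neural markers and 15.7 to 28.6 and 13.6 to 27.1 CPM for the immune markers. For the epithelial markers they were 0 to 0.464 and 0.259 to 0.745 CPM, and all of these overlapped. The medians were -0.11 over 5 neural, 0.08 over 3 immune and -1.51 over 2 epithelial markers tested, and of these lists only the neural one had a member called. *Cd3e* of the immune list and *Krt18* and *Krt5* of the epithelial list had no count in either clone. The part of other cells in the differences was not tested.

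The polyA libraries of the same clones gave a second measurement that the calls above had not used. In polyA, 196 of 14932 autosomal genes were higher in sg5 (1.31%) and 182 were lower (1.22%). All 67 genes called higher in the rRNA-depleted libraries were tested in polyA and all had a positive log2 fold change there, and 54 of them were also called. Of the 115 lower genes, 113 were tested, 110 had a negative log2 fold change and 60 were called. No gene was called the other way. The 3 exceptions in sign, named after their values were seen, were *H19*, *Etv1* (0.26) and *Dusp18* (0.12), all far from the threshold, with adjusted p from 0.817 to 0.991. The median change was smaller in polyA, at 1.70 for the higher and -1.16 for the lower genes. The genes were chosen by their change in the rRNA-depleted libraries, which favours larger values there, so the smaller medians are not a separate result. *Alcam* was not called in polyA, with a log2 fold change of -0.44 ± 0.47 and overlapping clones (18.7 to 51.8 CPM in sg5, 24.2 to 75.9 CPM in sg6). Among the other genes not called in polyA were *Fzd4* (0.16 ± 0.24), *Lhfpl2* (-0.22 ± 0.34), *Tpm2* (-0.38 ± 0.19) and *Ccl7* (-0.48 ± 0.32). The 2 genes not tested in polyA, looked up in the same way, were *H1f1* and *Mir328*. Histone messages of this kind lack a polyA tail. *Mir328* lies in exon sequence of *Elmo3* on the other strand, and was at a log2 fold change of -3.21 against -3.08 for *Elmo3*, so the reads of the 2 cannot be told apart without a stated strand.

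**Figure D3:**
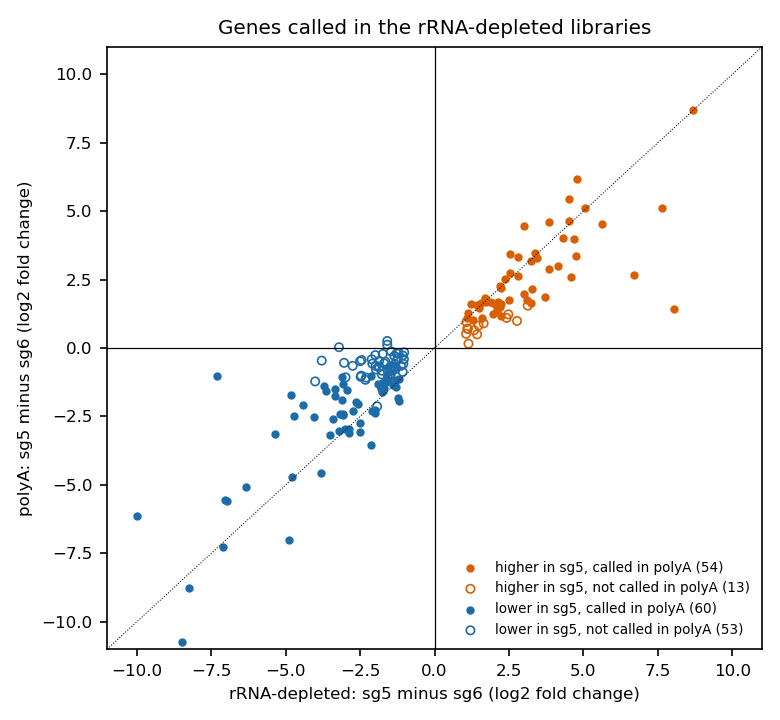
Each of the 180 called genes that could be tested in both library types is 1 point, with the log2 fold change of sg5 over sg6 from rRNA-depleted libraries on the x axis and from polyA libraries on the y axis. The dotted line marks equal values, filled points were also called in polyA (54 higher and 60 lower), and 3 of the lower genes lie above 0 on the y axis.

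Genes of 3 autosomes lay lower in sg5 as a body. The median log2 fold change, less the 0.05 of all autosomal genes, was -0.301 on chromosome 13 (527 genes), -0.223 on chromosome 11 (1094 genes) and -0.202 on chromosome 15 (532 genes), while the other 16 autosomes ranged from -0.083 on chromosome 12 to 0.083 on chromosome 18. On chromosome 13, 82.7% of the genes had a negative log2 fold change, against 71.4% on chromosome 11 and 71.2% on chromosome 15. The shift ran along the whole chromosomes. All 10 windows of 10 Mb with 20 or more genes on chromosome 13 were below the median of all genes (-0.453 to -0.222), as were all 12 on chromosome 11 (-0.380 to -0.151) and all 8 on chromosome 15 (-0.237 to -0.096), against 46 of 179 windows on the other autosomes. In single libraries, the median deviation of chromosome 13 genes from their mean over all libraries was -0.206, -0.122 and -0.094 in sg5, 0.136, 0.213 and 0.140 in sg6 and -0.046 to 0.018 in WT. The clones stood on opposite sides of WT for chromosome 13. For chromosome 11, sg5 was at -0.202 to -0.175, sg6 at 0.025 to 0.050 and WT at 0.131 to 0.166. In polyA, the medians less that of all genes were -0.320 for chromosome 13, -0.089 for chromosome 11 and -0.115 for chromosome 15. The other 16 autosomes ranged there from -0.049 on chromosome 12 to 0.109 on chromosome 5. Chromosomes 11 and 15 were thus the lower ones in polyA too, but chromosome 5 was shifted about as far the other way. Only chromosome 13 stood well apart in size.

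**Figure D4:**
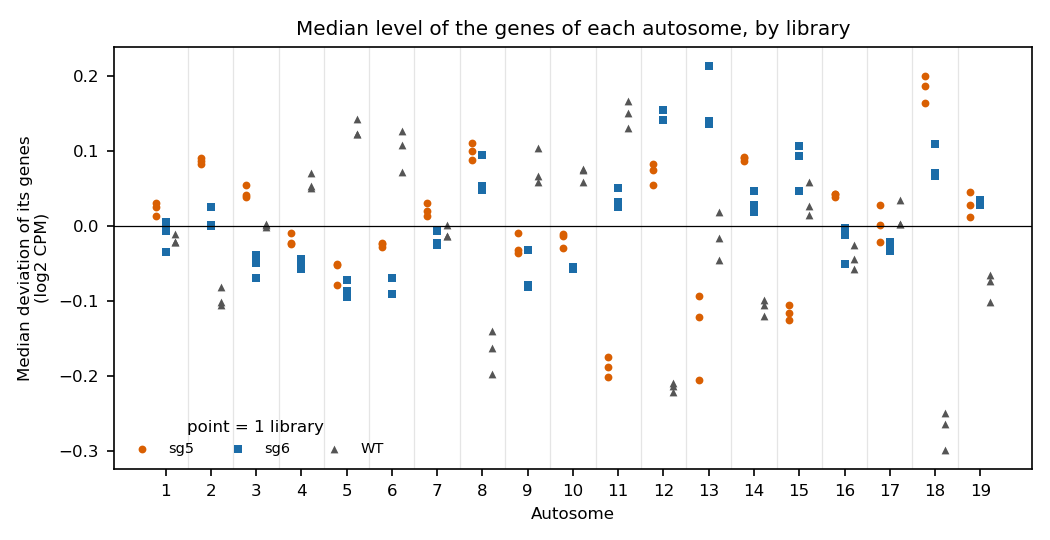
For each autosome (x axis) and library (1 point each), the median over its genes of the deviation in log2 CPM from the gene's mean over the 9 rRNA-depleted libraries, centred on the median of all genes of that library. The sg5 points (orange circles) lie below the sg6 points (blue squares) on chromosomes 11, 12, 13 and 15, with gaps of 0.200, 0.059, 0.230 and 0.151.

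Chromosome 13 had no gene higher and 10 lower in sg5 (1.90% of its genes), and chromosome 15 had 2 higher and 10 lower (1.88%), against 0.522% higher and 0.896% lower of all genes tested. The next largest shares of lower genes were on chromosome 10 (1.502%) and chromosome 6 (1.39%). On chromosome 13 the most abundant were *H1f1*, *Emb*, an immunoglobulin-type companion of monocarboxylate transporters (-1.86 ± 0.19), *Naip2*, an inflammasome sensor (-1.61 ± 0.20), *Lhfpl2* (-1.74 ± 0.29) and *Hapln1*. *Emb* had 12.6, 9.36 and 9.55 CPM in sg5 libraries, 29.2, 41.8 and 43.4 CPM in sg6 and 43.8 to 47.9 CPM in WT, so that sg5 stood apart from both. *Naip2* shares 32.8% of its words with other transcripts, mainly of its paralogs, and *Lhfpl2* was not called without sg6 replicate 2 or sg6 replicate 3 (adjusted p = 0.0619 and 0.0661). On chromosome 15 they were *Ly6c1*, *Ndrg1*, *Slc38a1*, an amino acid transporter (-1.64 ± 0.19), *A4galt*, a glycolipid galactosyltransferase (-2.13 ± 0.18), and *Slurp1*, a secreted Ly6-type protein (-2.86 ± 0.29). *A4galt* was tight within each line, with 3.54, 2.62 and 2.98 CPM in sg5 libraries, 13.1, 13.7 and 13.5 CPM in sg6 and 25.3 to 28.3 CPM in WT. When each gene's change was taken less the median of its chromosome, 65 of the 67 higher and 113 of the 115 lower genes were still called, and no other gene was. The medians were small beside the threshold of 1, so only genes close to that threshold could change.

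Of 42783 TE loci tested, 44 were higher in sg5 (0.103%) and 22 lower (0.0514%), with a median log2 fold change of 3.44 and -7.61. All 66 were without overlap between the clones, which is not a separate result, since they were chosen by this same difference. Blocking on replicate number gave 37 lower loci. The count of higher loci was 28 without WT replicate 3, 25 without sg5 replicate 2, 29 without sg5 replicate 3, 23 without sg6 replicate 2 and 20 without sg6 replicate 3, and 10 loci were lower without sg6 replicate 3. By class, the LTR elements held 18 higher and 10 lower loci of 9036 tested, LINEs 10 and 8 of 8992 and SINEs 7 and 3 of 21731. Within the LTR class, 14 higher and 8 lower loci were ERVK copies, of 2790 tested (0.502% and 0.287%). The MurSatRep1 repeats had 7 higher and no lower locus among 249 (2.81%), with a median log2 fold change of 0.24 over all tested. Of the 7, MurSatRep1_dup1631, MurSatRep1_dup1634, MurSatRep1_dup1636 and MurSatRep1_dup1637 carry close numbers, and MurSatRep1_dup479 was not called with the replicate block (adjusted p = 0.0508). Apart from MurSatRep1_dup1634, these are named after their values were seen.

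Among loci averaging at least 0 log2 CPM, the lowest were 4 ERVK loci that were abundant in sg6, lower in WT and almost without counts in sg5. RLTR10D2_dup150, a long terminal repeat, had 521, 573 and 544 counts in the sg6 libraries, 316, 253 and 300 in WT and none in sg5, so that sg6 was at least 170-fold higher (fitted log2 fold change -12.16 ± 0.51, adjusted p = 3.76e-07). MMERVK10D3_I-int_dup314, an internal retroviral sequence, had 55.1, 32.6 and 37.8 CPM in sg6, 11.8 to 21.5 CPM in WT and 0 to 0.155 CPM in sg5 (-9.10 ± 0.51). MMERVK10D3_I-int_dup315 (-7.77 ± 0.40) and IAP-d-int_dup1000 (-8.18 ± 0.43) had the same pattern, with 41.5, 24.3 and 30.8 CPM and 47.6, 29.2 and 38.7 CPM in sg6 and at most 0.155 CPM in sg5. All 4 were higher in each sg6 library than in any WT library. MMERVK10D3_I-int_dup314 and MMERVK10D3_I-int_dup315 carry consecutive numbers. The names give no position, so whether the 4 loci are parts of 1 inserted element cannot be told. The fifth of the named lowest loci, the satellite SYNREP_MM_dup3, had 0.231 to 0.309 CPM in sg5 and 0.991, 3.32 and 5.17 CPM in sg6 (-3.51 ± 0.59) and was not called without any 1 of the sg5 replicates or without sg6 replicate 3 (adjusted p from 0.0506 to 0.0806).

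A further 8 of the 22 lower loci had no count in sg5 or WT and 69 to 194 counts in all in sg6. They fell outside the rule for naming loci because of their low average and were seen after their values were known. They belong to LINEs (Lx9_dup23109, L1MC1_dup2640, L1_Mus3_dup21327 and the consecutively numbered L1Md_F2_dup31080 and L1Md_F2_dup31081), to LTR elements (ORR1F_dup11976 and RLTR22_Mur_dup1178) and to the MIR family (MIRb_dup21522). Against the floor of 3 counts per library, sg6 was at least 7.18-fold to at least 20.3-fold higher than sg5.

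Among the higher loci, WT was seldom below sg6. The WT mean was below both clones at 1 of the 44, between them at 24 and above both at 19. B2_Mm1a_dup9906, a B2 SINE, had 65, 108 and 152 counts in sg5, none in sg6 and 138, 113 and 110 in WT, which makes sg5 at least 38.6-fold higher than sg6. MMETn-int_dup641, the internal part of an ETn element, had 3.08, 3.51 and 3.98 CPM in sg5 libraries, 0.129, 0.149 and 0.219 CPM in sg6 and 4.55 to 7.88 CPM in WT (4.38 ± 0.36, adjusted p = 3.86e-05). RLTR8_dup151 (4.31 ± 0.38) and RMER17C-int_dup1523 (4.40 ± 0.71) were other ERVK copies with WT at or above sg5 in the mean. MurSatRep1_dup1634 had 1.81, 2.40 and 2.01 CPM in sg5, 0 to 0.175 CPM in sg6 and 0.516 to 1.58 CPM in WT (4.36 ± 0.61). At all 5 loci the WT libraries lay above every sg6 library.

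**Figure D5:**
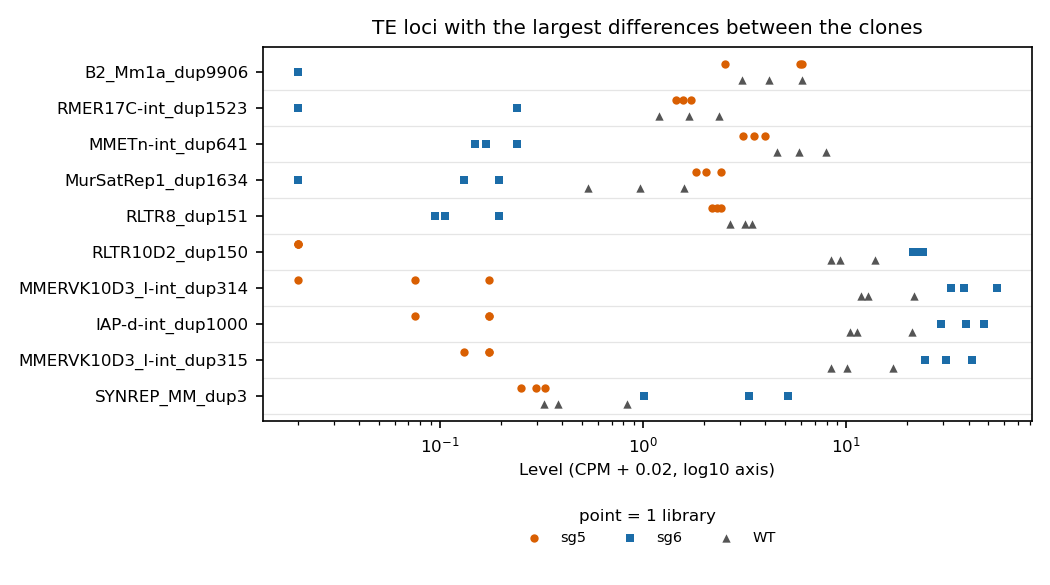
The level of the 5 highest and the 5 lowest named TE loci in each library, as CPM plus 0.02 on a log10 axis, with 1 point per library for sg5 (orange circles), sg6 (blue squares) and WT (grey triangles). The WT points lie with or near sg5 for the highest loci, and between the clones but near sg6 for the 4 ERVK loci that are lowest.

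When counts were summed over all loci of a subfamily, so that the choice among copies of that subfamily no longer mattered, 0 of 1007 subfamilies were higher in sg5 (0.0%) and 4 were lower (0.397%), by edgeR's quasi-likelihood test. At an unadjusted p below 0.05, 6 were higher and 12 lower, and DESeq2 found 0 higher and 5 lower. The 4 were all of the ERVK family. MMERVK10D3_I-int had 16.2, 13.4 and 18.3 CPM in sg5 libraries, 121, 74.6 and 87.1 CPM in sg6 and 56.5 to 96.0 CPM in WT (-2.56 ± 0.24, adjusted p = 0.000894). RLTR10D2 had 5.58, 5.47 and 5.61 CPM in sg5 libraries, 23.8, 24.0 and 25.8 CPM in sg6 and 11.9 to 17.3 CPM in WT (-2.14 ± 0.17, adjusted p = 0.000218). IAP-d-int (-1.18 ± 0.24, adjusted p = 0.0436) and RLTR20B2 (-0.65 ± 0.12, adjusted p = 0.0296) were closer to the threshold. Over the 6 clone libraries 1 locus held 36.5% of the counts of MMERVK10D3_I-int, 72.3% of RLTR10D2 and 55.3% of IAP-d-int, each described above, and 34.5% of RLTR20B2 (RLTR20B2_dup715, -1.62 ± 0.32). Whether the top loci of MMERVK10D3_I-int, RLTR10D2 and IAP-d-int belong to 1 inserted element cannot be told, so these calls may not be separate. Not every copy was lower in sg5: RLTR10D2_dup130 had means of 3.06 CPM in sg5 and 0.319 CPM in sg6 (3.25 ± 0.36), and IAP-d-int_dup978 12.7 against 2.36 CPM (2.44 ± 0.46), all 3 loci being named after their values were seen. The number of lower subfamilies was 2 without sg5 replicate 2, sg5 replicate 3 or sg6 replicate 3. IAP-d-int was not called without WT replicate 3, sg5 replicates 2 or 3 or sg6 replicates 1 or 3 (adjusted p from 0.0858 to 0.162), and RLTR20B2 lost its call in all fits but those without WT replicate 3 or sg6 replicate 1 (0.0512 to 0.136).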

How the data were processed

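RNA from C3H/10T1/2 MPCs was sequenced after rRNA depletion (9 libraries, 3 each of sg5, sg6 and WT) and after polyA selection (9 libraries). The authors aligned rRNA-depleted reads with STAR, allowing multiple alignments, and deposited raw counts per Entrez gene and per TE locus, in which TElocal shares reads that align to several copies among them. They deposited estimated counts per gene for polyA libraries from Salmon, which were rounded to whole numbers here. The submitters' processing notes name STAR 2.27.10a, Salmon 0.8.2 and mm10. Genes were placed by RefSeq (GRCm38.p6, equal to mm10): 24045 of 24100 gene rows matched, 22982 of them on autosomes. No row without a gene or TE name was present.

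Counts were tested with edgeR 4.0.16 in R 4.3.3, by the quasi-likelihood test after TMM scaling and filterByExpr (minimum count 10, minimum total 15), in 1 fit of all 9 rRNA-depleted libraries with a term per line and the contrast sg5 less sg6. The Benjamini-Hochberg adjustment ran over 56086 features, genes of all chromosomes and TE loci together. Subfamily counts were summed over loci and fitted with the genes. The polyA table was fitted alike, with totals that were higher in sg5 than in sg6. Alternatives were DESeq2 1.42.0, other scaling, filters and thresholds, the 6 clone libraries alone, the replicate number as a block and each library left out. The deviations of same-numbered sg5 and sg6 libraries correlated over genes with r = 0.64, 0.32 and 0.17. The numbers were therefore taken as pairs in the replicate block, while the main fit and its calls used no pairing. Over all features r was only 0.096 for the third pair, and sg5 replicate 3 correlated best with sg6 replicate 2. Scripts were tested on simulated counts.

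Named items were Atrx, the 10 highest and 10 lowest called genes with an average of at least 1 log2 CPM, the 10 most abundant called genes, up to 4 called members per gene list, the 5 highest and 5 lowest called TE loci with an average of at least 0 log2 CPM, the called subfamilies, and the 5 most abundant called genes of the 2 autosomes with the largest share of calls in 1 direction. Members and lists were chosen with earlier results of these data known. Depth limits the precision of low values, and ratio intervals (95%, exact) and floors of 3 counts per library cover counting error only.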

Additional observations from a re-analysis of the deposited data

How the results depend on the processing

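Gene calls (67 higher, 115 lower) were 118 higher with DESeq2, 37 and 65 with at least 10 counts in every library, 20 and 29 against a log2 fold change of 1 by glmTreat, 184 and 175 with no filter, 38 and 66 in the 6 clone libraries alone, and 26 and 35 beyond a log2 fold change of 2 with an adjusted p under 0.01. TE loci (44 higher, 22 lower) were 78 and 63 with DESeq2, 10 and 9 with at least 10 counts, 15 and 12 by glmTreat, 115 and 95 with no filter, 21 higher in the 6 libraries and 18 and 12 when adjusted over TE loci alone. Lower subfamilies (4) were 2 in the 6 libraries. Leaving out 1 library gave 31 to 109 higher and 65 to 119 lower genes, 20 to 46 higher and 10 to 23 lower TE loci, and 2 to 4 lower subfamilies. The replicate block, a paired fit, gave 128 higher genes and 37 lower TE loci, and changed no call of an item named by the rule. The cause of these moves was not tested. The filter of at least 10 counts in every library also left fewer features to test.

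Of 67 named items, 25 lost their call without at least 1 library, 21 in the 6 libraries alone and 31 by glmTreat. *Atrx*, which was not called, changed sign to 0.11 without sg5 replicate 2 and to 0.04 without sg6 replicate 1, in a range of -0.36 to 0.11 over the fits that left out 1 library. The medians of chromosomes 11, 13 and 15 kept their sign under each alternative run, which were chosen for these medians after seeing the data. Low counts limit genes and loci under 0.5 CPM in 1 clone.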
